A study of Mus musculus with 22 samples.

Results

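The genes described here encode the presynaptic vesicle release machinery, the proteins that store transmitter vesicles, dock them at the terminal and fuse them with the plasma membrane. They were chosen by name. A member is a gene whose symbol starts with Syt, Stx, Stxbp, Vamp, Cplx, Rims or Snap followed by a digit, or with Rab3 or Unc13 followed by a letter, or is one of 12 listed genes (Syn1, Syn2, Syn3, Sv2a, Sv2b, Sv2c, Bsn, Pclo, Nsf, Napa, Napb and Syp). This gave 85 of the 55341 genes counted. Of these, 83 are protein coding and 2, Stxbp3-ps and Vamp7-ps, are processed pseudogenes, whose reads cannot be told apart with certainty from those of the parent genes. A name rule also takes in genes of other membrane traffic, such as Snap47, Stx5a or Stx17, and Rab3 regulators such as Rab3gap1.

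Fusion is driven by SNARE proteins. Synaptobrevin (Vamp2) on the vesicle zips together with Snap25 and a syntaxin on the plasma membrane. Munc13 (Unc13) proteins guide this assembly, complexins and the calcium sensor synaptotagmin hold the complex ready and trigger it, and Nsf with its SNAP adaptors (Napa, Napb) takes it apart for reuse. Rims, Bassoon and Piccolo build the active zone at which vesicles dock, synapsins tether the reserve of vesicles, and Rab3 proteins mark vesicles for docking. D1 projection neurons of the striatum release GABA mainly from axon endings in the substantia nigra and the inner pallidal segment, so their release mRNAs are read here in cell bodies far from most of the terminals they serve.

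Translating ribosome affinity purification was used to read mRNA on the ribosomes of D1 neurons in striatum. All 11 mice, mutant and wild type, carried the ribosomal protein Rpl10a fused to EGFP in neurons that express the dopamine receptor Drd1. Fmr1, which encodes the RNA-binding protein FMRP, was mutant in 5 mice (KO) and intact in 6 (WT). Each mouse gave an anti-EGFP pulldown (IP) and an aliquot of the same cleared lysate (input), so the 22 libraries form the groups KO IP (n = 5), WT IP (n = 6), KO input (n = 5) and WT input (n = 6). The labels give no age, sex, strain or litter. The tag sits in all Drd1-expressing cells, so the pulldown pools them. In such bulk samples, fewer cells of a type and less RNA per cell cannot be told apart.

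Libraries held 9375611 to 82376192 counts in IP and 25164548 to 43276230 in input. Fmr1 stood at 8.16 to 11.3 CPM (counts scaled to library size) in KO IP and 70.1 to 107.9 CPM in WT IP, and at 11.1 to 15.0 CPM in KO input and 59.7 to 72.5 CPM in WT input, so no library went against its label. All 9 listed D1 markers were higher in IP than in input in both genotypes, and the 6 D2 markers tested and all 9 astrocyte, 9 oligodendrocyte and 9 microglia markers were lower. Within IP alone only 6 of the 9 microglia markers passed the filter on low counts, so the others passed through input. Animals 1, 3, 9 and 12 had higher levels than all other animals for 8 of 12 cortical excitatory markers in each assay. The other 4 markers did not separate them, and the 12 summed to 518 to 699 CPM in their IP, against 387 to 596 CPM in the other 7 animals, which overlap. In input the sums were 410 to 941 CPM, against 312 to 408 CPM. Their vesicular glutamate transporter Slc17a7 was at 17.2 to 68.0 CPM in IP, against 0.0466 to 1.31 CPM in the other 7 animals, and 25.2 to 113 CPM in input, against 0.64 to 3.3 CPM. These animals are 2 of each genotype (KO 3 and 9, WT 1 and 12), and counts of members that passed were also taken without them.

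The members span more than 4 orders of magnitude in level. Levels between genes are compared here as mean CPM per kb of exon. Snap25 was the highest, at 845 CPM per kb in KO IP, 791 in WT IP, 573 in KO input and 572 in WT input. Other high members in WT IP were Cplx2 (complexin 2, 415 CPM per kb), Vamp2 (172), Syn1 (synapsin 1, 172), Cplx1 (152), Nsf (126), Rab3a (124) and Syt1 (84.8). All 85 members together made up 18510 to 21410 CPM in KO IP, 19240 to 20280 in WT IP, 12660 to 19650 in KO input and 13590 to 15510 in WT input. Snap25 alone supplied 26.7 to 32.4% of that sum in KO IP and 24.3 to 30.4% in WT IP. Each IP library summed higher than each input library of its genotype except that KO input of animal 9, at 19650 CPM, lay within the KO IP range.

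**Figure D1:**
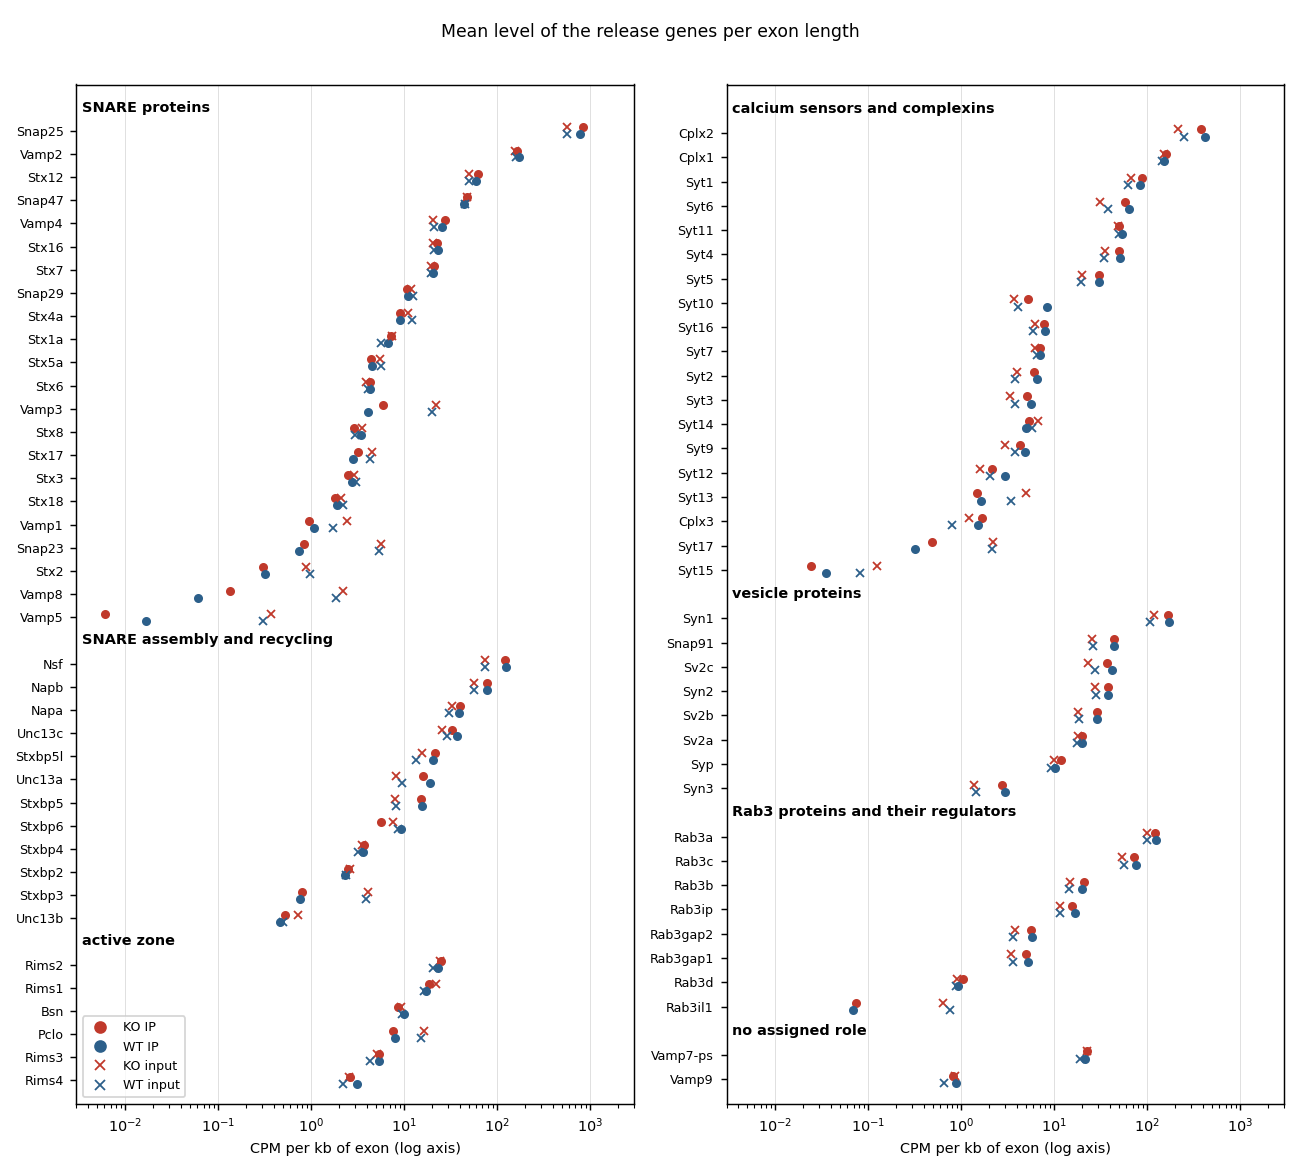
Mean level of members that passed the filter on low counts, in CPM per kb of exon on a log axis, grouped by role. Filled circles are IP and crosses input, red KO and blue WT. Snap25 leads at 845 (KO IP) and 791 (WT IP) CPM per kb, and Snap23, Stxbp3, Vamp3, Vamp5, Vamp8 and Rab3il1 have their circles well left of their crosses.

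At the other end, 6 members did not pass the filter over the 22 libraries and were not tested: Syt8, with no count in any library, and Cplx4, Stx11, Stx19, Unc13d and Stxbp3-ps, with at most 30 counts in any library. Cplx4 reached 21 counts in a KO input library and 1 count in IP. Unc13d, the Munc13 of immune and other granule-secreting cells, had 2 to 30 counts in KO input and 1 to 8 in WT input, against 0 in KO IP and 0 to 4 in WT IP. This left 79 members for IP over input, 75 for KO over WT in IP and 78 for KO over WT in input. A change is called where the adjusted p is under 0.05 over all genes tested (edgeR quasi-likelihood test with Benjamini-Hochberg adjustment). Fold changes are on the log2 scale with SE.

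More release genes were higher than lower in the D1 pulldown, and several widely expressed paralogs were far lower. In KO animals 44 of 79 members (55.7%) passed IP over input, against 47.3% of all 17311 genes tested, with 33 higher (20.9% of all genes were higher) and 11 lower (26.4% of all genes were lower). In WT animals 49 of 79 (62%) passed, against 49.6% of all genes, with 36 higher (21.8% of all genes) and 13 lower (27.8% of all genes). The median member stood at 0.14 in KO and 0.23 in WT, and the median of all genes at -0.11 in both. The same 33 members were higher in both genotypes, by 0.28 to 1.03, and 29 of them were positive in all 11 animals. Shares of all genes called in both genotypes, or of the same sign in all 11 animals, were not taken. Counts in both genotypes thus have no baseline here. Another 10 were lower in both, and 9 of these were negative in all 11 animals. The 10 include Vamp5 and Vamp8, which passed the filter through their input libraries alone. Their fall was thereby fixed in advance, and they are also among the 11 and 13 lower. Without animals 1, 3, 9 and 12 the counts were 46 in KO and 51 in WT of 78 members, against 7298 and 7941 of 17541 genes. The median member then stood at 0.34 in KO and 0.28 in WT, and the median of all genes at -0.10 and -0.11. With the animal as a block, calls rose over all genes too, to 8906 in KO and 9319 in WT of 17311. Of the 79 members, 52 passed in KO and 54 in WT. The additions were Rims1, Stx17, Stxbp6, Syt13, Syt17 and Unc13b as lower and Syp and Unc13c as higher in KO, and Syt13 and Syt14 as lower and Rims3, Sv2a and Unc13c as higher in WT. The statements that follow are from the fit without the block.

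**Figure D2:**
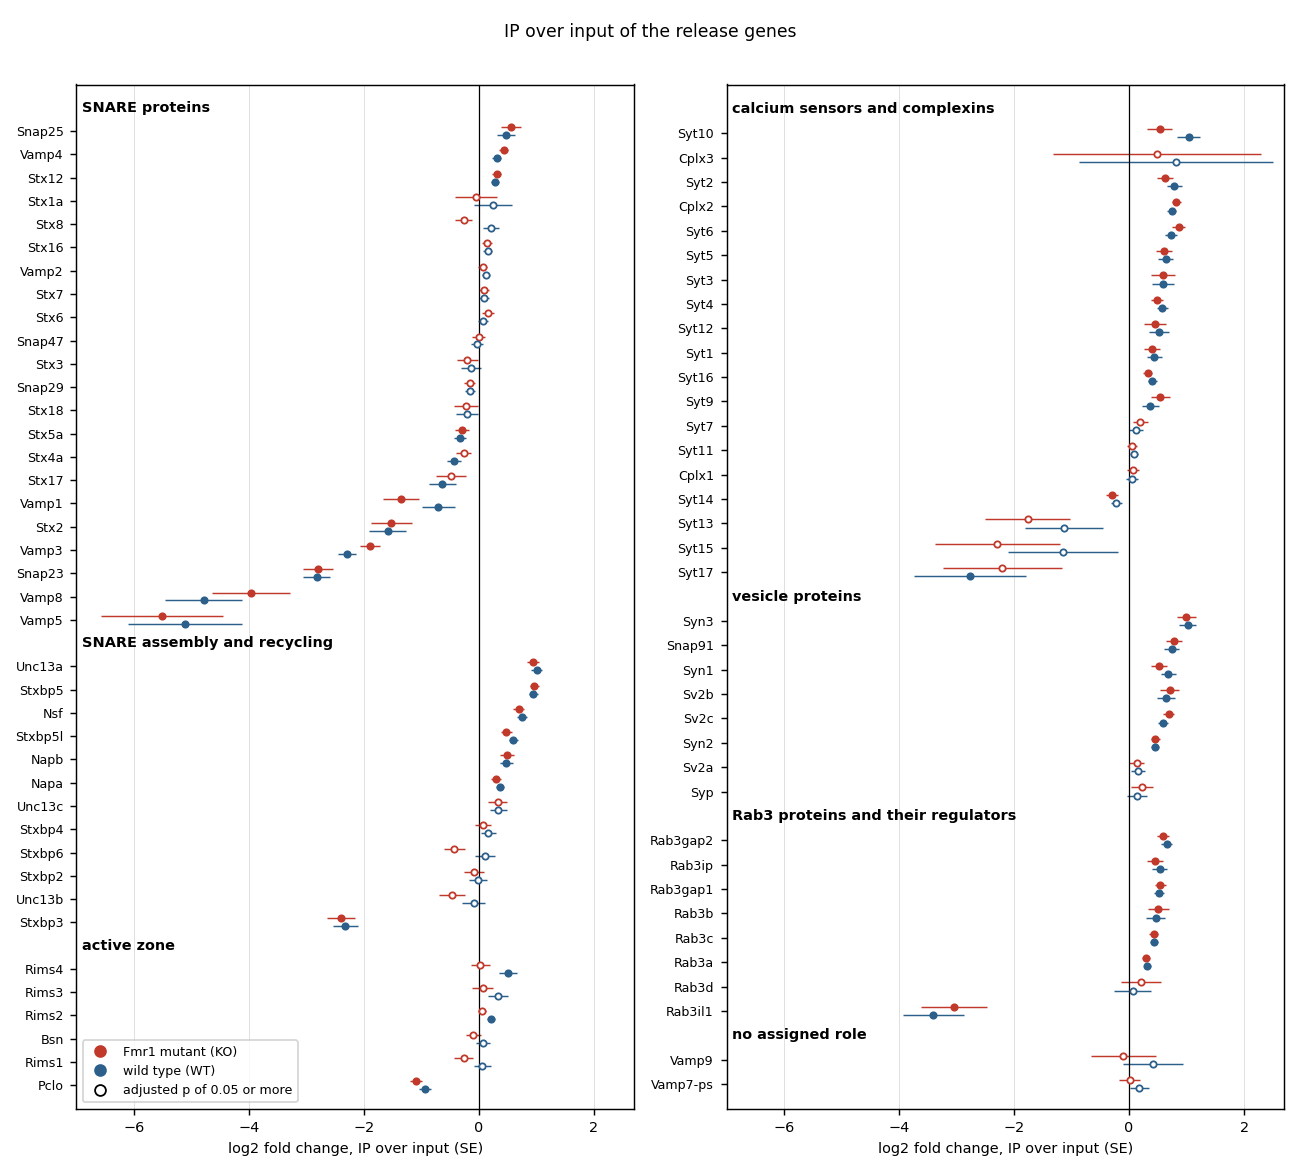
IP over input of tested members as log2 fold change with SE from the edgeR fit, grouped by role, KO in red and WT in blue. Filled points passed at an adjusted p under 0.05. Most filled points lie between 0.28 and 1.03, while Snap23, Stxbp3, Vamp3, Stx2 and Rab3il1 lie from -1.52 to -3.40. Vamp5 and Vamp8 had few or no counts in IP libraries, so their fitted values depend on the prior count.

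Promoter sequences are given for Syn1 and Unc13a, which rose, and Snap23, which fell, to set the regulatory sequence beside the direction of the change. They are RefSeq windows of GRCm38.p6, 250 bases before to 50 after the gene start, read 5′ to 3′ on the gene's strand. Capitals mark the motifs, which were searched on both strands and do not overlap each other here. They are TGACGTCA, the cyclic AMP response element, and TCAGCACC, the left part of the RE1 element that the neuronal gene repressor REST binds. The GC box was searched as GGGCGG. The TATA box was searched as TATAAA. Syn1 lies at chrX:20920869-20921168 on the minus strand, Unc13a at chr8:71671708-71672007 on the minus strand and Snap23 at chr2:120567421-120567720 on the plus strand.
Syn1: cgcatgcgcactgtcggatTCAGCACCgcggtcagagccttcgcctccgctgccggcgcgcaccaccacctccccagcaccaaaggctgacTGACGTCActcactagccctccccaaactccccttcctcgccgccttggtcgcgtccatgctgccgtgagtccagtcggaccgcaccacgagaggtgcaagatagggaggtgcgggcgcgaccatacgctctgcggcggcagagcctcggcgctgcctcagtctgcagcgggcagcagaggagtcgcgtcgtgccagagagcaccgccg
Unc13a: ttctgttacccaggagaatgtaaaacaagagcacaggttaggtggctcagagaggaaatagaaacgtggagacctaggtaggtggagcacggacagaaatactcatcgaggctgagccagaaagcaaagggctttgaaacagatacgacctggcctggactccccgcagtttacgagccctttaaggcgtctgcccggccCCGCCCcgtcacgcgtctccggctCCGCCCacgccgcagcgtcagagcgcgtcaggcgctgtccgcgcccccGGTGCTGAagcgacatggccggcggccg
Snap23: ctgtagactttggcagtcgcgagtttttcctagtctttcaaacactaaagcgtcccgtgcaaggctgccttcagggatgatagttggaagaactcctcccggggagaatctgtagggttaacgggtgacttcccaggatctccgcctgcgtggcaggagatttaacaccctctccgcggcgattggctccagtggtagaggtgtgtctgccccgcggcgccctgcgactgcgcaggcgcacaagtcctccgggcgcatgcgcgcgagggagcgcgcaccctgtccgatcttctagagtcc

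Syn1 holds the RE1 part and the cyclic AMP element, Unc13a holds the RE1 part and 2 GC boxes on the opposite strand, and Snap23 holds none of the 4 motifs. RefSeq windows were matched for 67 of the 85 members and for 27025 genes in all. TCAGCACC occurred in 3 of the 67 members (Napa, Syn1 and Unc13a), against 1.59% of all windows. These 3 are 11.1% of the 27 matched members higher in IP in both genotypes, so Syn1 and Unc13a, printed above, are not typical of that group. None of the 9 matched members lower in both held it. At a share of 1.59% of all windows, 9 windows are too few to show a lack. TGACGTCA occurred in Napa, Stxbp3 and Syn1, against 1.88% of all windows. GGGCGG occurred in 74.6% of the members' windows and 35.9% of all windows, at 77.8% in both the higher and the lower members. TATAAA occurred in 4.48% of the members' windows (Rab3b, Stx3 and Sv2b) and 14.2% of all windows. A match describes the letters only.

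Among the 23 SNARE proteins tested, 3 rose and 7 fell in KO IP over input, and 4 rose and 9 fell in WT. Vamp5 and Vamp8 are among those that fell, and they passed the filter through input alone. The called share was 43.5% in KO and 56.5% in WT, near the 47.3% and 49.6% of all genes tested. Snap25, the neuronal plasma membrane SNARE (chr2:136713453-136782428), had 5496, 6224, 6943, 5095 and 4937 CPM in KO IP, against 3019, 3417, 6848, 3074 and 3103 CPM in KO input. WT animals had 4719 CPM at the lowest, 5343 at the median and 6026 at the highest in IP, against 3446, 3734 and 4590.1 CPM in input. In WT every IP library lay above every input library, and in KO all did except the input of animal 9, which lay above 4 of the 5 KO IP libraries. Snap25 rose by 0.56 ± 0.18 in KO (adjusted p = 0.0120) and 0.47 ± 0.16 in WT (adjusted p = 0.0196). The KO call ended without animal 3 (0.49, adjusted p = 0.0608), and the WT call without animal 4 (0.43, adjusted p = 0.0613) or 14 (0.45, adjusted p = 0.0540).

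Its widely expressed paralog Snap23, which serves exocytosis in many cell types (chr2:120567671-120601255), went the other way. Snap23 had 2.42, 4.88, 3.88, 3.43 and 3.26 CPM in KO IP, against 27.7, 22, 21.7, 19.6 and 32.1 CPM in KO input. In WT mice it stood at 1.91, 2.55 and 6.47 CPM at the lowest, median and highest in IP, against 18.3, 22.5 and 28.4 CPM in input. No IP library of either genotype reached an input library. Snap23 fell by 2.79 ± 0.26 in KO (adjusted p = 1.67e-09) and fell by 2.82 ± 0.24 in WT (adjusted p = 2.12e-10). Per kb of exon, Snap25 stood at 845 and Snap23 at 0.833 in KO IP, and Snap25 stood at 791 and Snap23 at 0.741 in WT IP.

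Members of the synaptobrevin family went in both directions. Vamp2, the vesicle SNARE of synaptic release, did not pass, with 0.07 ± 0.08 in KO and 0.12 ± 0.07 in WT. Vamp4, a SNARE of endosomes and the trans-Golgi network, rose by 0.43 ± 0.08 in KO and 0.31 ± 0.08 in WT. Vamp3, cellubrevin of recycling endosomes, fell by 1.89 ± 0.17 in KO and fell by 2.30 ± 0.16 in WT. Vamp8, an endosomal SNARE of secretory and immune cells, had 0 to 0.909 CPM in KO IP, against 3.92 to 7.23 CPM in KO input, and 0 to 0.347 CPM in WT IP, against 2.94 to 7.14 CPM in WT input. Vamp5, known from muscle, had 0 to 1 count in each KO IP library and 0 to 3 in each WT IP library, against 6 to 69 counts in KO input and 18 to 25 in WT input. Both passed as lower in both genotypes, and both passed the filter through their input libraries alone, so no fold is given for them.

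Vamp1, a synaptobrevin of fast-releasing neurons, fell by 1.36 ± 0.31 in KO and fell by 0.70 ± 0.28 in WT. Its KO input was 16.3, 20.3, 55.7, 16.3 and 14.1 CPM, with animal 9 at 55.7. Without animal 9 the KO value was -0.83 (adjusted p = 0.00391). The WT call was near the threshold, at an adjusted p of 0.0398, and ended without animal 1 (-0.74), 3 (-0.70), 4 (-0.67), 13 (-0.69), 14 (-0.67) or 20 (-0.73). The difference between genotypes in IP over input was -0.65 ± 0.41 and did not pass.

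Of the syntaxins, Stx12 (syntaxin 13 of recycling endosomes) rose by 0.31 ± 0.07 in KO and 0.28 ± 0.07 in WT. Stx2 fell by 1.52 ± 0.36 in KO and fell by 1.59 ± 0.33 in WT, and Stx5a, a Golgi syntaxin, fell by 0.30 ± 0.12 in KO and fell by 0.33 ± 0.11 in WT. The KO call of Stx5a ended without animal 3 (-0.24), 9 (-0.27) or 10 (-0.24). Stx17, of autophagosomes, stood at -0.49 ± 0.26 in KO and fell by 0.64 ± 0.24 in WT, and its WT call ended without animal 4 (-0.63), 14 (-0.65) or 20 (-0.50). Stx1a, Stx3, Stx6, Stx7, Stx8, Stx16, Stx18, Snap29 and Snap47 did not pass in either genotype, nor did Vamp9 and the pseudogene Vamp7-ps, which were given no role.

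Among the 13 tested proteins of SNARE assembly and recycling, 7 rose in both genotypes and 1 fell in both. That is 61.5% called in each genotype, against 47.3% (KO) and 49.6% (WT) of all genes. Unc13a (Munc13-1, chr8:71624417-71671757), which opens syntaxin for priming, had 225, 172, 208, 208 and 198 CPM in KO IP, against 106, 119.6, 129.6, 93.2 and 76.8 CPM in KO input. In WT it had 213, 234 and 276 CPM at the lowest, median and highest in IP, against 113, 119.8 and 126 CPM in input. All IP libraries lay above all input libraries, and Unc13a rose by 0.95 ± 0.11 in KO (adjusted p = 2.65e-08) and 1.00 ± 0.10 in WT (adjusted p = 1.56e-09). Of its paralogs, Unc13b and Unc13c did not pass in either genotype without the block. With the animal as a block, Unc13c rose by 0.33 in KO (adjusted p = 0.000794) and 0.36 in WT (adjusted p = 0.000102). Unc13b there stood at -0.47 in KO (adjusted p = 0.00847).

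Stxbp3 (Munc18c, chr3:108793176-108840526), a widely expressed syntaxin-binding protein, had 1.77, 3.51, 8.08, 3.49 and 4.31 CPM in KO IP, against 22.7, 20.6, 21.9, 18.8 and 26.6 CPM in KO input. In WT mice it stood at 3.16, 3.89 and 5.30 CPM in IP, against 17.7, 20.6 and 23.3 CPM in input. No IP library reached an input library, and Stxbp3 fell by 2.40 ± 0.25 in KO and fell by 2.32 ± 0.22 in WT.

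Other members of the group rose too. Stxbp5 (tomosyn), a SNARE-binding brake on release, rose by 0.96 ± 0.08 in KO and 0.95 ± 0.08 in WT, and its paralog Stxbp5l by 0.48 ± 0.09 in KO and 0.60 ± 0.08 in WT. Nsf, the ATPase that takes SNARE complexes apart, rose by 0.69 ± 0.09 in KO and 0.74 ± 0.08 in WT. Its adaptors rose too, Napb by 0.48 ± 0.12 in KO and 0.48 ± 0.11 in WT, and Napa by 0.30 ± 0.08 in KO and 0.36 ± 0.07 in WT. Stxbp2, Stxbp4 and Stxbp6 did not pass, though Stxbp6 passed as lower in KO with the animal as a block.

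Among the 19 tested calcium sensors and complexins, 11 rose and 1 fell in each genotype. That is 63.2% called in each, against 47.3% (KO) and 49.6% (WT) of all genes. Cplx2 (chr13:54371349-54383917), the complexin with the highest level here, had 1902, 1606, 1916, 1957 and 1999 CPM in KO IP, against 1105, 1030.1, 1192, 930.0 and 1052 CPM in KO input. In WT it had 1853, 2030.1 and 2293 CPM at the lowest, median and highest in IP, against 1004, 1291 and 1319 CPM in input. The IP and input ranges were apart in both genotypes, and Cplx2 rose by 0.82 ± 0.08 in KO (adjusted p = 4.23e-09) and 0.74 ± 0.07 in WT (adjusted p = 4.03e-09). Cplx1 did not pass, with 0.06 ± 0.11 in KO and 0.05 ± 0.10 in WT.

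The synaptotagmins that rose in both genotypes were Syt1, Syt2, Syt3, Syt4, Syt5, Syt6, Syt9, Syt10, Syt12 and Syt16. Syt1, the main sensor of fast release in forebrain, rose by 0.40 ± 0.14 in KO and 0.44 ± 0.13 in WT, and Syt2, its fast counterpart in other circuits, by 0.63 ± 0.14 in KO and 0.79 ± 0.13 in WT. Syt9, also a sensor for fast release, rose by 0.54 ± 0.16 in KO and 0.37 ± 0.15 in WT. Syt6 rose by 0.87 ± 0.11 in KO and 0.73 ± 0.10 in WT, Syt5 by 0.61 ± 0.14 in KO and 0.63 ± 0.12 in WT, and Syt3, a high-affinity calcium sensor, by 0.59 ± 0.22 in KO and 0.59 ± 0.20 in WT. Syt4, a form that binds calcium poorly, rose by 0.48 ± 0.11 in KO and 0.58 ± 0.10 in WT, and Syt16 by 0.32 ± 0.08 in KO and 0.40 ± 0.08 in WT. Over 14.5% of its exon bases Syt4 overlaps Gm26658, and reads there cannot be told apart. Syt7, the slow sensor of asynchronous release, Syt11, Syt13 and Syt15 did not pass without the block. With the animal as a block, Syt13 stood at -1.70 in KO (adjusted p = 2.03e-05) and -1.35 in WT (adjusted p = 8.00e-05).

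Syt10 (chr15:89782393-89841860), known as a sensor for IGF-1 secretion in olfactory neurons, rose by 0.53 ± 0.22 in KO (adjusted p = 0.0486) and 1.03 ± 0.20 in WT (adjusted p = 0.000111), where it had the largest rise of all members. It had 12.5, 12, 8.16, 8.80 and 7.45 CPM in KO IP, against 9.29, 8.63, 3.60, 6.00 and 6.26 CPM in KO input. WT animals had 11.6, 15.3 and 19.4 CPM at the lowest, median and highest in IP, against 5.78, 7.64 and 8.93 CPM in input. The ranges were apart in WT and overlapped in KO. The KO calls of Syt10 and of Syt12, which stood at 0.45 ± 0.19 (adjusted p = 0.0491), both lay just inside the threshold and ended under 14 and 13 of 17 other settings. Leaving out single animals also ended the KO calls of Syt1 without animal 3 (0.37), 10 (0.37) or 11 (0.38) and of Syt3 without animal 9 (0.54), 10 (0.49) or 11 (0.60). In WT they ended that of Syt3 without animal 1 (0.52), of Syt12 without animal 12 (0.39), and of Syt9 without animal 1 (0.35), 13 (0.31), 14 (0.36) or 20 (0.39).

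Syt17 stood at -2.20 ± 1.03 in KO and fell by 2.76 ± 0.97 in WT (adjusted p = 0.0243), a call that ended without animal 4 (-2.66), 13 (-2.64) or 14 (-2.60). Its IP level was 8.18 and 3.91 CPM in KO animals 3 and 9, against 0 to 0.322 CPM in the other KO animals, and 4.27 and 4.16 CPM in WT animals 1 and 12, against 0.232 to 0.801 CPM in the other WT animals. These are the 4 animals in which 8 of 12 cortical markers were higher. Without them the WT value was -4.27. Syt14 fell by 0.30 ± 0.11 in KO and stood at -0.22 ± 0.10 in WT, and its KO call ended without animal 10 (-0.22) or 11 (-0.24).

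Cplx3, the complexin of retinal ribbon synapses and of some deep cortical neurons, separated the same 4 animals. It had 4.05 to 22.3 CPM (205 to 438 counts) in their IP, against 0 to 0.267 CPM (0 to 9 counts) in the IP of the other 7 animals. In input it had 1.65 to 12.3 CPM in the 4 animals and 0.0397 to 0.529 CPM in the other 7. No library of either kind overlapped the other, in either assay. The part of cortical cells in these values was not tested.

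**Figure D3:**
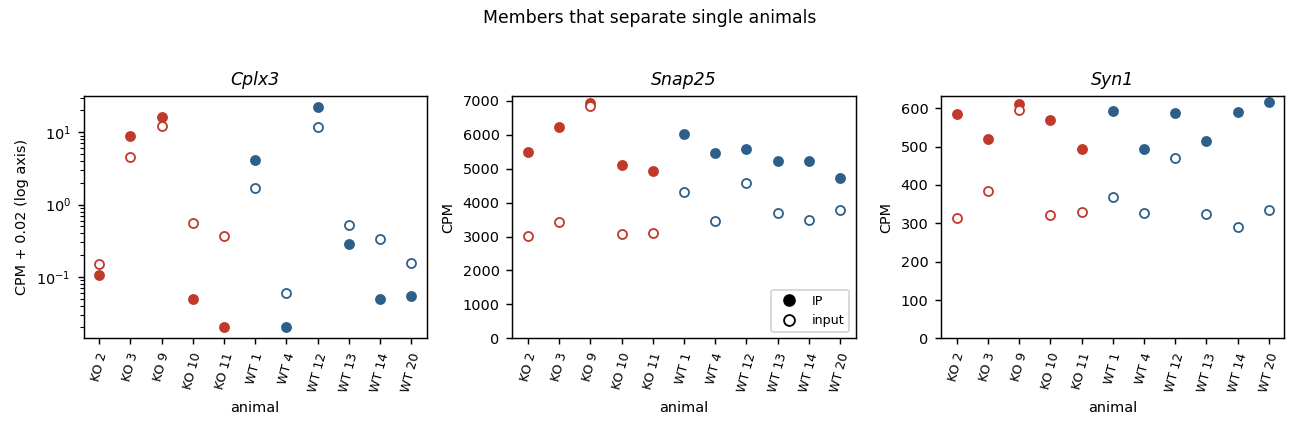
Level of Cplx3 (CPM plus 0.02, log axis), Snap25 and Syn1 (CPM, linear axes) in every animal, KO left of WT, with IP filled and input open. Cplx3 is high in KO 3 and 9 and WT 1 and 12 in both assays, and the input of KO 9 stands at 6848 CPM for Snap25 and 596 CPM for Syn1, level with its IP.

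Of the 6 active zone scaffolds, none rose in KO and 2 rose in WT, and Pclo fell in both. That is 16.7% called in KO and 50% in WT, against 47.3% and 49.6% of all genes. Pclo (Piccolo, chr5:14514918-14863459), a very large cytomatrix scaffold, had 131, 168, 193, 180.3 and 188 CPM in KO IP, against 290.2, 382, 460.2, 367 and 339 CPM in KO input. In WT mice it stood at 162, 173 and 215 CPM at the lowest, median and highest in IP, against 305, 342 and 379 CPM in input. No IP library reached an input library, and Pclo fell by 1.10 ± 0.11 in KO (adjusted p = 4.97e-09) and fell by 0.94 ± 0.10 in WT (adjusted p = 1.13e-08). Its relative Bsn (Bassoon), a scaffold of similar kind, did not pass, with -0.10 ± 0.13 in KO and 0.07 ± 0.12 in WT.

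Rims2 (chr15:39198261-39684372), a scaffold that binds Rab3, Munc13 and calcium channels, had 263, 254, 268, 257 and 270.5 CPM in KO IP, against 216, 241, 249, 289 and 269 CPM in KO input. In WT it had 227, 238 and 268 CPM at the lowest, median and highest in IP, against 192, 211 and 232 CPM in input. The ranges overlapped in both genotypes. Rims2 stood at 0.05 ± 0.08 in KO and rose by 0.21 ± 0.07 in WT (adjusted p = 0.0143). The WT call ended without animal 20 (0.16, adjusted p = 0.0768), without animals 1, 3, 9 and 12 (0.19, adjusted p = 0.0816) and with other scaling. Rims4 stood at 0.02 ± 0.17 in KO and rose by 0.51 ± 0.15 in WT (adjusted p = 0.00715). Rims1 and Rims3 did not pass in either genotype. With the animal as a block, Rims1 passed as lower in KO and Rims3 as higher in WT.

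Of the 8 vesicle proteins, 6 rose in both genotypes (75%) and none fell, against 20.9% (KO) and 21.8% (WT) of all genes higher. Syn1 (chrX:20860511-20921004), which tethers vesicles in the reserve pool, had 584, 521, 609.9, 570.3 and 494 CPM in KO IP, against 313, 384, 596, 323 and 329 CPM in KO input. WT animals had 494, 589 and 616 CPM at the lowest, median and highest in IP, against 292, 332 and 469 CPM in input. The WT ranges were apart, and in KO only the input of animal 9 reached the IP range. Syn1 rose by 0.51 ± 0.14 in KO (adjusted p = 0.00434) and 0.68 ± 0.13 in WT (adjusted p = 0.000117), and by 0.77 in KO without animals 1, 3, 9 and 12.

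Syn3 (chr10:86055125-86498896), the synapsin of developing neurons, rose the most of this group. It had 39.8, 26.9, 30.7, 36.4 and 36.4 CPM in KO IP, against 19.7, 18.5, 11.2, 12.8 and 23.2 CPM in KO input. In WT mice it stood at 32.7, 36.8 and 38.0 CPM at the lowest, median and highest in IP, against 13.4, 19.3 and 21.5 CPM in input. All IP libraries lay above all input libraries, and Syn3 rose by 0.99 ± 0.17 in KO and 1.02 ± 0.15 in WT. Over 14.1% of its exon bases it overlaps Timp3, and since the libraries do not mark strand, reads there cannot be told apart. Syn2 rose by 0.46 ± 0.08 in KO and 0.46 ± 0.07 in WT. Sv2b and Sv2c, vesicle glycoproteins, rose by 0.71 ± 0.17 and 0.69 ± 0.10 in KO and by 0.65 ± 0.15 and 0.60 ± 0.09 in WT, and Snap91, the clathrin adaptor AP180 of vesicle retrieval, by 0.78 ± 0.14 in KO and 0.74 ± 0.13 in WT. Sv2a and Syp (synaptophysin) did not pass in either genotype. With the animal as a block, Syp passed as higher in KO and Sv2a as higher in WT. Syp shares 16.8% of its exon bases with Gm14703.

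Of the 8 Rab3 proteins and regulators, 6 rose and 1 fell in both genotypes. That is 87.5% called in each, against 47.3% (KO) and 49.6% (WT) of all genes. Rab3a (chr8:70754679-70758677), the main vesicle Rab of synapses, had 282, 272, 267, 286 and 261 CPM in KO IP, against 217, 232, 248, 226 and 192 CPM in KO input. In WT it had 258, 276 and 288 CPM at the lowest, median and highest in IP, against 198, 222 and 240.3 CPM in input. The ranges were apart though the step was small, and Rab3a rose by 0.30 ± 0.07 in KO (adjusted p = 0.00118) and 0.32 ± 0.07 in WT (adjusted p = 0.000193). Rab3b and Rab3c rose by 0.51 ± 0.18 and 0.43 ± 0.08 in KO and by 0.46 ± 0.16 and 0.43 ± 0.07 in WT. The Rab3b call ended in KO without animal 9 (0.46) or 11 (0.45) and in WT without animal 14 (0.40) or 20 (0.44).

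The GTPase-activating complex that switches Rab3 off rose with the Rabs. Rab3gap2 (chr1:185204117-185286759), its non-catalytic subunit, had 61.5, 63.8, 63.3, 58.3 and 61.4 CPM in KO IP, against 34.7, 42.3, 48.7, 40.1 and 38.2 CPM in KO input. WT animals had 51.2, 62.6 and 71.2 CPM at the lowest, median and highest in IP, against 32.8, 38.4 and 45.5 CPM in input. The ranges were apart, and Rab3gap2 rose by 0.60 ± 0.11 in KO and 0.65 ± 0.10 in WT, with 19.3% of its exon bases shared with Gm34882 and Iars2. Rab3gap1, the catalytic subunit, rose by 0.54 ± 0.09 in KO and 0.52 ± 0.08 in WT. Rab3ip (Rabin8), an exchange factor for Rab8, rose by 0.45 ± 0.14 in KO, a call that ended without animal 10 (0.40, adjusted p = 0.0573), and by 0.53 ± 0.13 in WT. Its paralog Rab3il1 fell by 3.05 ± 0.57 in KO and fell by 3.40 ± 0.53 in WT, with 1 to 41 counts in KO IP libraries and 0 to 68 in WT IP libraries. Rab3d did not pass.

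The falls of Snap23, Vamp3, Stxbp3, Stx2 and Rab3il1 ran beside those of markers of glia and of other striatal neurons. The 9 astrocyte markers summed to 146.9 to 502 CPM in KO IP and 197 to 364 CPM in WT IP, against 2527 to 3743 CPM in KO input and 2557 to 3418 CPM in WT input. The 9 oligodendrocyte markers summed to 168 to 233 CPM in KO IP and 145 to 214 CPM in WT IP, against 2872 to 3572 CPM in KO input and 2464 to 3384 CPM in WT input. The 9 microglia markers summed to 3.94 to 8.65 CPM in KO IP and 8.04 to 12 CPM in WT IP, against 112 to 162 CPM in KO input and 99.3 to 158 CPM in WT input. Markers of other striatal neurons were lower in IP to a similar degree. The median log2 IP over input was -3.64 in KO and -3.83 in WT for the 6 D2 markers. For the 12 striatal interneuron markers it was -3.95 and -4.42, and for the astrocyte markers -3.755 and -3.83. All 6 and all 12 were negative in both genotypes. Only 10 of the 12 interneuron markers and 6 of the 9 microglia markers passed the filter within IP alone. The others passed through input, so their falls were fixed in advance. Cortical excitatory markers were mixed, with 3 of 12 called higher and 1 called lower in each genotype. Their medians were -0.73 in KO and -0.43 in WT. No marker of these lists was at 0 in all libraries. Their part in the falls was not tested.

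Coding length went only weakly with IP over input. Across the 78 members with a coding length, Spearman's rho between length and log2 IP over input was 0.284 in KO and 0.274 in WT, against 0.213 in KO and 0.255 in WT across 14070 genes. Genes are not independent replicates, and all points share the same libraries.

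Genes of the same pathway outside the name rule, listed with earlier results of these data known, were more often higher than lower. Of 76 listed (vesicle transporters, other vesicle membrane proteins, other active zone and calcium-triggering proteins, and endocytosis proteins), 75 were tested. In KO 39 rose and 10 fell (65.3% called), and in WT 42 rose and 9 fell (68% called). Of all genes tested, 20.9% rose and 26.4% fell in KO, and 21.8% rose and 27.8% fell in WT. The medians were 0.36 in KO and 0.42 in WT, against -0.11 in both for all genes. Slc32a1, the vesicular GABA transporter that D1 neurons use, rose by 0.80 ± 0.15 in KO and 0.76 ± 0.14 in WT. Of the 6 vesicle transporters tested, 1 was called higher, 2 were called lower and 3 were not called in each genotype. The glutamate transporter Slc17a8 fell by 4.96 ± 0.85 in KO and fell by 3.56 ± 0.69 in WT. The acetylcholine transporter Slc18a3 passed as lower in both genotypes, but it passed the filter through input libraries alone, so no fold is given. Otof (otoferlin), the calcium sensor of inner hair cells, rose by 1.5 ± 0.29 in KO and 0.99 ± 0.26 in WT. Synj1, a phosphatase that helps uncoat endocytosed vesicles, rose by 0.96 ± 0.09 in KO and 0.96 ± 0.09 in WT. The widely expressed Dnm2 fell by 1.66 ± 0.13 in KO and fell by 1.32 ± 0.11 in WT. Sypl and Syngr2 fell too, and Snapin, a SNARE-binding protein, fell by 0.94 ± 0.11 in KO and fell by 1.00 ± 0.11 in WT.

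Loss of FMRP was set against wild type in IP, which asks whether the mRNAs on D1 ribosomes differ. No member passed. Of all 14456 genes tested, 8 passed (0.0553%), all lower in KO, and of the 75 members tested 0 did. At an unadjusted p under 0.05 there were 6 of 75 members and 1102 of 14456 genes. The median member stood at -0.005 and the median of all genes at 0.004. DESeq2 called 1 member, Stxbp6, and 65 of the 14456 genes. Without animals 1, 3, 9 and 12, 0 members passed in IP, in input or in the interaction. Of all genes, 8 of 14734, 7 of 16693 and 0 of 17541 passed there. Several abundant members stood near 0, with Snap25 at 0.10 ± 0.08, Cplx2 at -0.12 ± 0.07, Vamp2 at -0.05 ± 0.06, Syn1 at -0.02 ± 0.07 and Rab3a at -0.003 ± 0.06.

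**Figure D4:**
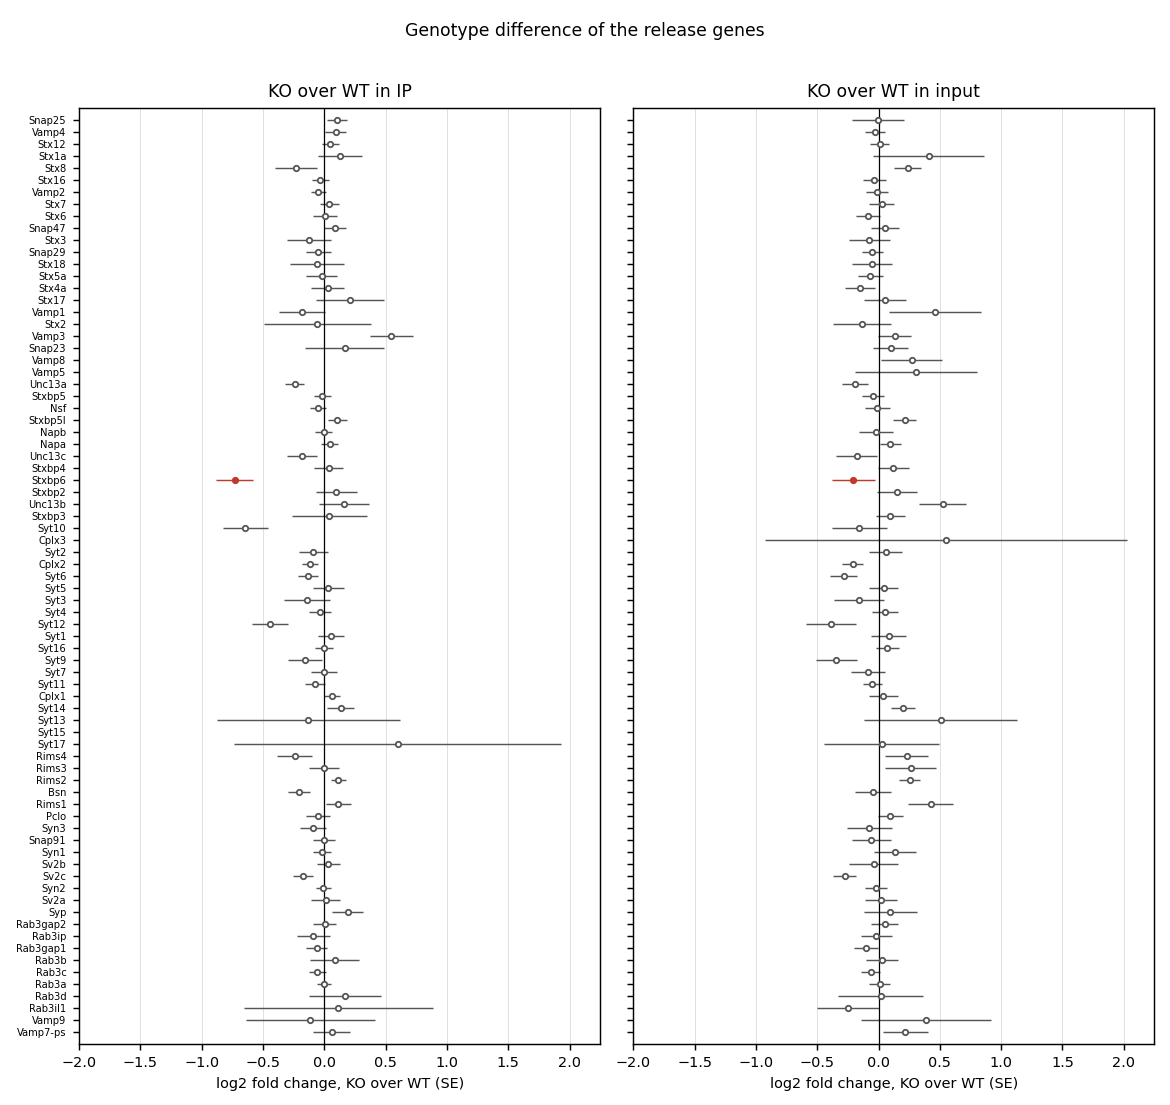
KO over WT in IP (left) and in input (right) for the members tested, as log2 fold change with SE. Open points did not pass, nor did Stxbp6, which is drawn filled and red only to find it (-0.73 in IP, -0.21 in input). Most values lie within 0.3 of 0, and wide bars mark members with few counts.

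Stxbp6 (amisyn, chr12:44852484-45074709), a syntaxin-binding protein known as a brake on SNARE assembly, had the smallest p among members, rank 13 of all 14456 genes. It had 35.4, 39.1, 22.9, 30.4 and 21.2 CPM in KO IP, against 43.1, 48.6 and 63.6 CPM at the lowest, median and highest in WT IP. Every KO library lay below every WT library. In input it had 35.9, 43.3, 55.7, 34.2 and 31.4 CPM in KO, against 27.9, 49.8 and 56.7 CPM in WT, with the ranges overlapping. The log2 fold change was -0.73 ± 0.15 in IP (adjusted p = 0.126) and -0.21 ± 0.18 in input (adjusted p = 0.886). The IP value passed with DESeq2 (-0.74, adjusted p = 0.00133) and with no filter on low counts (-0.73, adjusted p = 0.0389), and over all other settings it ran from -0.85 to -0.64 with adjusted p between 0.0534 and 0.296. Without animals 1, 3, 9 and 12 it was -0.82 (adjusted p = 0.185). In the authors' deposited table, whose fold changes run WT over KO, Stxbp6 stands at 0.74 with an adjusted p of 0.00245. It is the only member of the 72 with an adjusted p in that table to lie under 0.05, among 81 such genes in all.

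**Figure D5:**
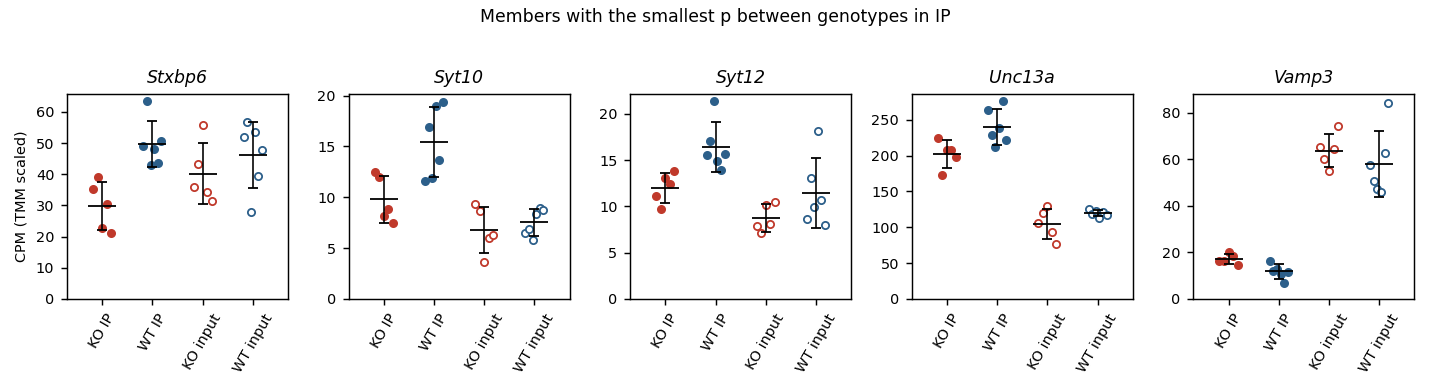
CPM per library of the 5 members with the smallest p between genotypes in IP, in KO IP, WT IP, KO input and WT input, with mean and SD as black bars (n = 5 KO, n = 6 WT). Stxbp6 and Syt12 have all KO IP libraries below all WT IP libraries, and none of the 5 passed across all genes.

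The next 4 members by p did not pass either. Syt10 had the KO IP values given above, 7.45 to 12.5 CPM, against 11.6 to 19.4 CPM in WT IP, with 2 KO libraries inside the WT range (-0.65 ± 0.19, adjusted p = 0.333). Vamp3 had 16.2, 16.1, 20.2, 18.6 and 14.6 CPM in KO IP, against 7, 11.9 and 16.4 CPM at the lowest, median and highest in WT IP (0.54 ± 0.18, adjusted p = 0.449). Only 1 WT library reached the KO range. Unc13a had 172 to 225 CPM in KO IP, against 213 to 276 CPM in WT IP, and overlapped (-0.24 ± 0.08, adjusted p = 0.449). Syt12 (chr19:4445908-4477447) had 11.1, 9.68, 13.1, 12.4 and 13.8 CPM in KO IP, against 13.9, 15.6 and 21.4 CPM in WT IP, with the closest KO and WT libraries 0.2 CPM or less apart (-0.44 ± 0.15, adjusted p = 0.478). It shares 17.2% of its exon bases with A930001C03Rik. Stxbp6 and Syt12 were the only 2 of 75 members whose groups did not overlap, against 0.865% of all genes tested. Both had KO below WT, as had 0.595% of all genes. No member had every KO library above every WT library, against 0.270% of all genes.

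In input 3 of 16429 genes passed (0.0183%) and 0 of 78 members, by edgeR and by DESeq2. At an unadjusted p under 0.05 there were 8 of 78 members and 1123 of 16429 genes, and without animals 1, 3, 9 and 12 there were 15 of 77 members and 1807 of 16693 genes. No member had groups that did not overlap, against 0.639% of all genes (0.371% with KO below WT and 0.268% with KO above WT). Rims2 stood at 253 ± 27.6 CPM in KO input and 211 ± 17.8 CPM in WT input (SD, n = 5 and 6), which gave 0.26 ± 0.09 with an adjusted p of 0.543. Sv2c stood at 226, 236, 197, 209 and 247 CPM in KO input, against 218, 276 and 304 CPM at the lowest, median and highest in WT input (-0.28 ± 0.09, adjusted p = 0.543). Unc13b (Munc13-2) stood at 14, 17.4, 25.6, 10.2 and 14.8 CPM in KO input, against 8.58, 11.9 and 13.1 CPM at the lowest, median and highest in WT input (0.53 ± 0.19, adjusted p = 0.603). The highest of these is animal 9, and without it the value was 0.32. Syt6 (-0.29 ± 0.11, adjusted p = 0.635) and Cplx2 (-0.21 ± 0.09, adjusted p = 0.655) followed. Projection neuron markers were also lower in KO input, though none passed. The medians were -0.25 for 9 D1, -0.13 for 6 D2 and -0.21 for 8 shared markers, all of them negative. Of 11 cortical excitatory markers 9 were positive and 2 negative, with a median of 0.52. The part of cell content in the members' input values was not tested.

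The input of KO animal 9 stood apart from the other inputs in these genes. It was the highest of the 11 inputs for 32 of 79 members (40.5%), against 13.7% of all genes tested. Snap25 was at 6848 CPM there, against 3019 to 3417 CPM in the other KO inputs, and Syn1 at 596 CPM, against 313 to 384 CPM. The cortical markers summed to 941 CPM in this input, the top of the KO input range, whose median was 329 CPM. Their part in the members' levels was not tested.

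Whether IP over input itself differed between genotypes was tested as an interaction. None of 79 members and none of 17311 genes passed, so 0% of all genes were called. DESeq2 called 5 genes, none of them members. At an unadjusted p under 0.05 there were 3 of 79 members and 710 of 17311 genes. Stx8 stood at -0.48 ± 0.20, Rims4 at -0.48 ± 0.23 and Stxbp6 at -0.53 ± 0.25, each lower in KO, with an adjusted p of 1 for all 3. Without animal 9, Stx8 stood at -0.31 and Stxbp6 at -0.30, and without animals 1, 3, 9 and 12 Stx8 stood at -0.18 and Stxbp6 at -0.28. For Stx8 the KO IP value of animal 9 was 11.9 CPM, against 20.7 to 25.5 CPM in the other KO animals and 19.1 to 28.0 CPM in WT IP. Vamp3 (0.40 ± 0.23) and Syt10 (-0.50 ± 0.30) came next. The 7 members called in 1 genotype only (among them Syt14 in KO, and Rims2, Rims4, Stx17 and Syt17 in WT) are therefore not shown to differ between genotypes.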

How the data were processed

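RNA of 22 libraries from 11 mice was analysed as raw counts per gene symbol, which the authors made with STAR and featureCounts on mm10, per the submitters' processing notes. Per the labels' protocols the libraries do not mark strand and an animal's IP and input come from the same lysate. The deposited tables of the authors' own comparisons hold log2 fold changes, p-values, a mean signal of normalized counts and a test score, from DESeq2 per the same notes. Only the log2 values and adjusted p-values were used.

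Counts were tested with edgeR 4.0.16 in R 4.3.3 (TMM, filterByExpr, robust quasi-likelihood fit, Benjamini-Hochberg over all genes tested, threshold 0.05). KO over WT was fitted within each assay. IP over input and its difference between genotypes came from a 4-group fit of all 22 libraries. SE is the log2 fold change divided by the square root of F. The fit was tested on simulated counts. Levels are CPM scaled by TMM over the 22 libraries, divided for comparison between genes by the exon length of GENCODE vM21 (GRCm38), which also gave the coordinates. Alternatives were DESeq2 1.42.0 and its size factors, other filters, leaving out animals, and the animal as a block.

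Same-numbered IP and input libraries deviated together from their group means (correlation 0.238 to 0.529 over 8299 genes in the 11 animals), so the block pairs them. Members, gene lists and tests were chosen with earlier results of these data known. Full values are given, per role, for the member highest per kb and those with the largest rise and fall in WT that passed in both genotypes at a mean of at least 10 CPM, and for the 5 members with the smallest p in each genotype test. Some members are not reported here by name, and the counts include them. Vamp1, Syt17, Cplx3 and the input of animal 9 were singled out after their values were seen. No 2 libraries of a group agreed within sampling noise. The animals are the replicates, and the precision of low members is limited by their counts.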

Additional observations from a re-analysis of the deposited data

Results flagged for a closer look

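Over 88 groups of libraries, 6 held a library far from the rest of its group, and chance alone gives about 4.4 at 1 in 20. In KO IP, Cplx2 was low in animal 3 at 1607 CPM, with the others at 1902 to 1999 CPM. In WT IP, Snap23 was high in animal 13 at 6.47 CPM (others 1.91 to 3.58 CPM), Stxbp6 was high in animal 4 at 63.6 CPM (others 43.1 to 50.6 CPM) and Syn3 was low in animal 14 at 32.7 CPM (others 36.6 to 38.0 CPM). In KO input, Snap25 at 6848 CPM (others 3019 to 3417 CPM) and Syn1 at 596 CPM (others 313 to 384 CPM) were both high in animal 9.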

How the results depend on the processing

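No named gene reversed its direction in the settings run. The median member, near 0, did change sign without animals 1, 3, 9 and 12. It went from 0.018 to -0.068 for KO over WT in input and from -0.028 to 0.026 in the interaction. Members called in IP over input numbered 38 to 46 in KO and 43 to 50 in WT when single animals were left out. All genes called then numbered 7345 to 8325 in KO and 7661 to 8923 in WT. With the animal as a replicate block the called members numbered 52 in KO and 54 in WT, and no member lost its call. All genes called numbered 8906 in KO and 9319 in WT with the block. Stxbp6 in KO stood at -0.43 there (adjusted p = 0.0164). In the interaction the block called 0 members. Members called in KO over WT in IP numbered 1 with DESeq2 and 1 with no filter. For IP with no filter the count over all genes is not given, so that member has no share beside it. Genes called in all numbered 65 with DESeq2 and 4 to 8 without single animals in IP. In input they numbered 28 with DESeq2, 5 with no filter, 7 without animals 1, 3, 9 and 12, and 2 to 7 without single animals. In the interaction they numbered 5 with DESeq2 and 0 to 2 without single animals. The cause of these shifts was not tested. Of the named genes checked in IP over input, 9 of 53 in KO and 9 of 57 in WT lost their call under at least 1 setting. The 53 include Rims2, which did not pass in KO. Depth limits Vamp5, Vamp8, Rab3il1 and Syt17.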
